A study of Arabidopsis thaliana with 17 samples.

Results

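The comparison described here sets the clsy quadruple mutant, clsy quad, against Col-0 wild type over all 12,939 siRNA clusters of a small RNA-seq table from Arabidopsis flowers. It uses 4 of the 17 libraries of the series, 2 biological replicates of each genotype, taken by their labels. The clsy quad plants (alleles clsy1-7, clsy2-1, clsy3-1 and clsy4-1) carry T-DNA insertions in each of the 4 CLSY genes, and Col-0 is the wild-type accession. The table holds 12 libraries of 6 genotypes in all. Values of 2 others are given beside them: nrpd1-3, which lacks the largest subunit of Pol IV, and NRPD1-3xF_WT, which is nrpd1-3 with a transgene of FLAG-tagged intact NRPD1. The study asked how Pol IV is brought to its target loci. The values are 24 nt siRNA levels in RPKM. Reads are scaled to the length of the cluster and, as inferred here, to the filtered reads of the library. All 24 nt reads count as siRNAs here, so that 24 nt microRNAs and fragments of other RNAs are not set apart. Whole flowers were used, so that fewer cells that make an siRNA and fewer siRNAs per cell cannot be told apart. Transcript levels of the CLSY genes were not measured in these libraries, and the labels were not checked against them.

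Pol IV is a plant-specific RNA polymerase that makes short transcripts from transposons and other repeats. RDR2 turns these into double-stranded RNA, DCL3 cuts it into 24 nt siRNAs, and the siRNAs guide RNA-directed DNA methylation (RdDM). The CLSY proteins are chromatin remodeler-like partners of Pol IV that bring it to different sets of loci, CLSY1 and CLSY2 together with the chromatin reader SHH1. MicroRNAs come from another source, a fold-back transcript of Pol II that is usually cut by DCL1. Long inverted repeats can also fold into double-stranded RNA without RDR2.

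Some of the clusters that did not follow the general loss in clsy quad lay at microRNA genes or at inverted repeats, and their sequences are shown for that reason. The mature microRNAs below come from the 5 microRNA genes at clusters called higher in clsy quad (MIR848, MIR8178, MIR8121, MIR163 and MIR1887). A further 2 come from genes whose clusters persisted (MIR869, MIR839), and 4 from genes whose clusters fell to a low level or to 0 (MIR776, MIR397a, MIR8177, MIR5662). They were read from the TAIR10.1 genome at the RefSeq annotation, and the seed, bases 2 to 8, is in capitals. The 25 mature microRNAs annotated at 23 genes within 300 bp of a cluster named here had 25 different seeds, so that no seed was shared. The genes of miR163 and miR8121 give the only 24 nt mature forms among them.
ath-miR848: uGACAUGGgacugccuaagcua
ath-miR8178: uAACAGAGuaauuguacagug
ath-miR8121: aAAGUAUAaugguuuagugguuug
ath-miR163: uUGAAGAGgacuuggaacuucgau
ath-miR1887: uACUAAGUagagucuaagaga
ath-miR869.1: aUUGGUUCaauucugguguug
ath-miR839-5p: uACCAACCuuucaucguuccc
ath-miR776: uCUAAGUCuucuauugauguu
ath-miR397a: uCAUUGAGugcagcguugaug
ath-miR8177: gUGUGAUGaugugucauuuaua
ath-miR5662: aGAGGUGAccauuggagaug

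Exact inverted repeats with arms of 20 bp or more lay at 4 of the 30 nuclear clusters that kept at least 50% of the Col-0 level (13.3%). Over all 12,902 nuclear clusters, 322 (2.50%) had one. The first arm of each of the 4 is shown. The second arm is its exact reverse complement and follows after 18 to 110 bp. The longest, 91 bp at merged_4_18087176, lies at chr4:18087224-18087314 and holds the mature miR8178, which is in capitals. The others lie at chr1:24721199-24721232, chr1:10982842-10982867 and chr5:22322733-22322756, all on the plus strand of TAIR10.1.
merged_4_18087176: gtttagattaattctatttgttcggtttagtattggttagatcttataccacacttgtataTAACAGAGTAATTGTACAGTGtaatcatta
merged_1_24720965: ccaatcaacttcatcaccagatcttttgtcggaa
merged_1_10982103: tgtggtgaatgtgtttttgggtgaac
merged_5_22322586: tcgacaaagtgaagggtttggtct

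At nearly all clusters, 24 nt siRNAs were lost in clsy quad. Over all clusters, the summed RPKM was 17,246 and 17,080 in clsy quad, against 366,469 and 347,373 in Col-0, so that 4.81% ± 0.0328 (SD, n = 2) of the Col-0 sum was left. Of the clsy quad sum, 65.7% ± 2.36 came from a single cluster, merged_1_24884060 at MIR163, against 1.37% ± 0.0800 of the Col-0 sum. The 11 clusters called higher held 83.8% ± 1.89 of the sum in clsy quad and 1.53% ± 0.0833 in Col-0. Without these 11 clusters, 0.791% ± 0.0870 of the Col-0 sum was left in clsy quad. The same measure was 0.875% ± 0.108 in nrpd1-3, for which the same Col-0 libraries served as the reference. The 11 clusters were taken by their clsy quad level. Clusters high only in nrpd1-3 thus stay in this measure, and the shares of the mutants are not like for like. An exact permutation test of 2 libraries against 2 cannot go below a two-sided p of 0.333, and none was used for these sums.

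A cluster was called where limma on log2(RPKM + 1) gave a difference of at least 1 on the log2 scale and an adjusted p under 0.01. By this rule 12,669 clusters, 97.9% of those tested, were called lower in clsy quad and 11, or 0.0850%, higher. The other 259 were called in neither direction, and 181 of these had under 1 RPKM in Col-0, where a log2 difference of -1 cannot be reached with the added 1. Both clsy quad libraries were listed at 0 at 4,221 clusters (32.6%) with a Col-0 value above 0, and the highest Col-0 mean among these was 173 RPKM. At 10,900 clusters (84.2%) the clsy quad mean was under 1% of the Col-0 mean. It was 1% to 10% at 1,913 clusters, at least 10% at 125, at least 50% at 33 and at least 100% at 19. At least 1 RPKM was found in both clsy quad libraries at 122 clusters, against 12,659 clusters in both Col-0 libraries.

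**Figure D1:**
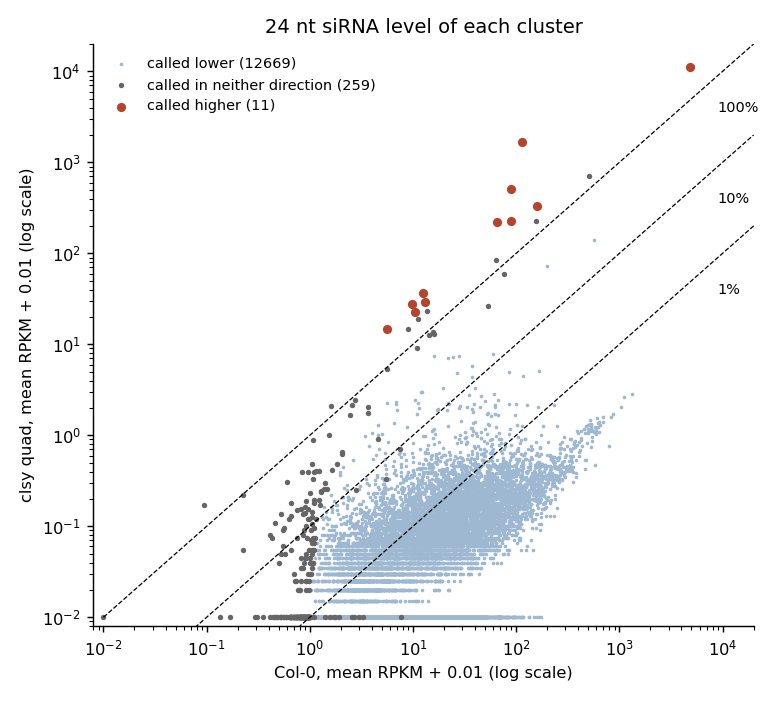
Mean 24 nt siRNA level of each of the 12,939 clusters in clsy quad (vertical axis) against Col-0 (horizontal axis), in RPKM + 0.01 on log scales. The dashed lines mark 100%, 10% and 1% of the Col-0 level. The 12,669 clusters called lower (light blue) form a cloud mostly under the 1% line, and the 11 called higher (red) lie above the 100% line.

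The deposited values have 2 decimals, so that a level under 0.005 RPKM is listed as 0, and read counts and cluster lengths were not used here. The position in the name of a cluster was taken as its start. Distances between clusters and genes are from that position, so that a cluster may reach into a gene named near it. The 2 clsy quad libraries differed in depth: low values were most often 1.27 times as high in replicate 1 as in replicate 2, which is the ratio of what a single read is worth. A value of 0 was listed at 53.9% of the clusters in clsy quad replicate 1 and at 43.6% in replicate 2, against 0.0309% and 0.0232% in the Col-0 libraries. The part of depth in the differences between the clsy quad replicates below was not tested. Both clsy quad libraries were below both Col-0 libraries at 99.8% of the clusters, and above both at 0.139%.

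To see whether the loss depended on the wild-type level, the clusters were split into 10 parts by their Col-0 mean. In the lowest decile, with a median of 1.52 RPKM in Col-0, the median cluster was at 0% of its Col-0 level in each clsy quad library, and 80.8% and 76.9% of the clusters were listed at 0. In the sixth decile, with a median of 13.5 RPKM in Col-0, the medians were 0% in clsy quad replicate 1 and 0.353% in replicate 2. In the highest decile, with a median of 101 RPKM in Col-0, the median cluster kept 0.126% in clsy quad replicate 1 and 0.230% in replicate 2, and 23.98% and 9.90% of the clusters were listed at 0. The share of clusters at 0 thus fell with each decile from the lowest to the highest, in each clsy quad library. The spread among clusters narrowed as well. The 90th percentile of the percent left was 3.48% in the lowest decile, 1.33% in the sixth and 0.475% in the highest. At a low Col-0 level a small share left is too little to be listed, so the medians of 0% do not mean a fuller loss. By the sum without the clusters called higher, the lowest decile kept 1.41% and 1.54% in the 2 clsy quad libraries. The sixth kept 0.963% and 1.10%, the eighth 0.445% and 0.528% and the highest 0.861% and 1.01%.

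The median RPKM that remained in clsy quad was 0 in the lowest decile, 0.0525 in the sixth and 0.230 in the highest, so that a higher Col-0 level went with a higher residue. In the highest decile, nrpd1-3 kept a median of 0.0435% and 0.0557% of the Col-0 level, below the 0.126% and 0.230% of clsy quad. With the added 1, the log2 difference depends on the Col-0 level as well as on the share lost. Its median was -1.31 in the lowest decile and -6.38 in the highest. Per cluster, the call depended on the level only at the low end. Of the lowest decile, 1,062 of 1,294 clusters (82.1%) were called lower, and in each of the other deciles between 99.2% and 100%. The 11 clusters called higher were in the fourth decile (1 cluster), the fifth and the sixth (2 each) and the highest (6).

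**Figure D2:**
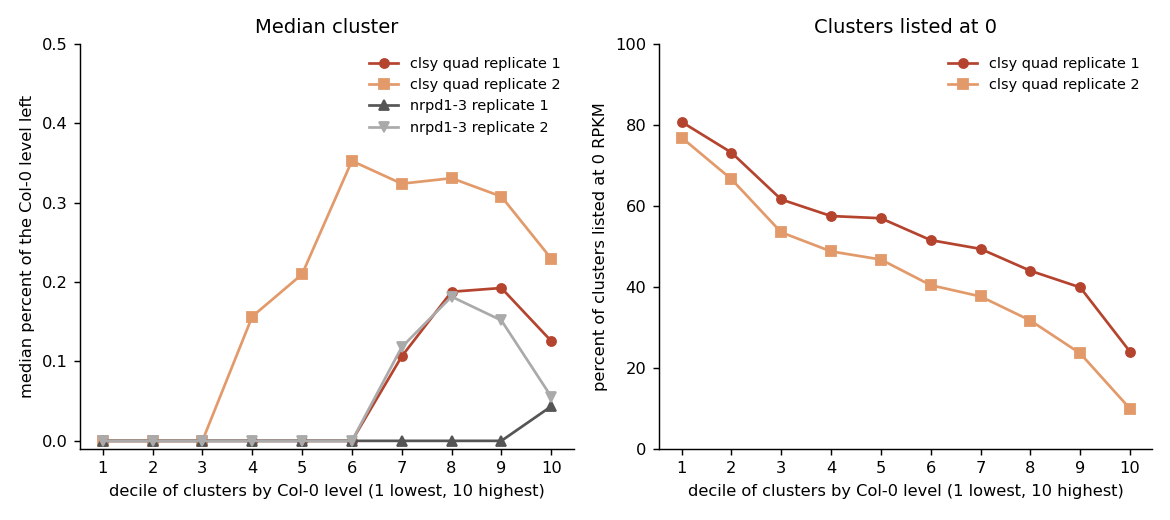
Left, the median percent of the Col-0 level left in each clsy quad and nrpd1-3 library, by decile of the clusters ranked by Col-0 level. Right, the percent of clusters listed at 0 RPKM in each clsy quad library, which fell to 23.98% and 9.90% in the highest decile, against 80.8% and 76.9% in the lowest.

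The residue of the clusters with the most siRNAs was even. Of the 100 clusters with the highest Col-0 mean, 97 were called lower and kept under 10% of the Col-0 level in clsy quad. Among these 97, whose Col-0 means were 290.2 RPKM or more, the percent left lay between 0.0805% and 0.283%, with a median of 0.179% in clsy quad replicate 1 and 0.191% in replicate 2. In nrpd1-3 the medians of the same clusters were 0.0291% and 0.0191%. The highest of them, merged_3_15680917 on chromosome 3, lies 94 bp from the long non-coding RNA gene AT3G06675. It had 3.00 and 2.64 RPKM in clsy quad, 0.380 and 0.350 RPKM in nrpd1-3, and 1,380 and 1,292 RPKM in Col-0. The limma difference between clsy quad and Col-0 was -8.45 on the log2 scale (SE 0.12, adjusted p = 3.16e-06). The next, merged_4_13902361, had 2.95 and 2.30 RPKM in clsy quad, 0.340 and 0.140 RPKM in nrpd1-3, and 1,137 and 1,098 RPKM in Col-0.

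Among the 10 clusters with the highest Col-0 mean, the clsy quad replicates differed by the largest ratio at merged_4_6275832. It had 0.230 and 1.29 RPKM in clsy quad, against 849 and 734 RPKM in Col-0, and 0.0960% was left. Without Col-0 replicate 1 or 2 its adjusted p by limma was 0.0206 and 0.01998, above the limit of 0.01 for a call, at -8.77 and -8.99 on the log2 scale. The other 8 of these clusters called lower kept between 0.191% and 0.235%. In the highest decile, 176 clusters called lower had at least 4 times less siRNA in NRPD1-3xF_WT than in Col-0, with medians of 9.48 and 109 RPKM. Their median residue in clsy quad was 0.147% and 0.205% of the Col-0 level. At the 876 clusters of the highest decile where NRPD1-3xF_WT was within 2-fold of Col-0, it was 0.123% and 0.246%. In nrpd1-3 the medians were 0.00948% and 0.0175% at the 176 clusters and 0.0559% and 0.0765% at the 876. The residue in clsy quad was thus a like share of the Col-0 level in both sets, while that in nrpd1-3 was lower where NRPD1-3xF_WT was low. What the residual reads of the highest clusters came from was not tested.

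Position along the chromosomes was read from the cluster name, in TAIR10. Of the clusters, 7,419 lay in pericentromeric windows fixed in whole Mb, 5,483 on the chromosome arms and 37 on the mitochondrial genome. The windows ran from 12 to 18 Mb on chromosome 1, 1 to 7 Mb on chromosome 2, 10 to 17 Mb on chromosome 3, 1 to 6 Mb on chromosome 4 and 9 to 16 Mb on chromosome 5. In the pericentromeric windows, 7,229 clusters (97.4%) were called lower in clsy quad and 2 higher. On the arms, 5,433 (99.1%) were called lower and 9 higher. The median pericentromeric cluster kept 0% of its Col-0 level in clsy quad replicate 1 and 0.0912% in replicate 2, and the median arm cluster 0.0719% and 0.275%.

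The arm clusters had more siRNA to begin with, with a median of 20.98 RPKM in Col-0, against 6.18 RPKM in the windows, and so the 2 regions were also compared at like levels. Among the quartile of clusters with the highest Col-0 level, pericentromeric clusters kept a median of 0.140% and 0.249% in the 2 clsy quad libraries and arm clusters 0.152% and 0.269%. In the next quartile, the medians were 0.185% and 0.334% in the windows and 0% and 0.369% on the arms, so that the order of the regions differed between the clsy quad libraries. In the quartile with the highest level the medians of the regions differed by less than the clsy quad replicates did. Clusters with at least 10% left numbered 50 in the windows (0.674%) and 52 on the arms (0.948%), and from the lowest to the highest quartile of the Col-0 level the share was 1.14%, 0.623%, 0.279% and 0.0929% in the windows and 3.41%, 0.873%, 0.778% and 0.695% on the arms. In the highest quartile these were 1 of 1,077 and 15 of 2,157 clusters. Of the 50 in the windows, 15 lay in the copy of mitochondrial sequence on chromosome 2 described last.

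Nearly all clusters were called lower on each chromosome. The share of clusters called lower in clsy quad lay between 97.0% on chromosome 2 and 98.9% on chromosome 1, and the median log2 difference between -3.38 on chromosome 3 and -3.75 on chromosome 1. The sum left, without the clusters called higher, differed more. It was 1.32% and 1.53% on chromosome 1 and 0.333% and 0.438% on chromosome 2, with the other chromosomes between. In bins of 1 Mb with at least 20 clusters, without those called higher, the median bin kept 0.340% of the Col-0 sum in clsy quad replicate 1 and 0.444% in replicate 2, over 116 bins. Between the lower and the upper quartile, the bins kept 0.286% to 0.429% in replicate 1, against 0.372% to 0.541% in replicate 2. Only 7 bins kept more than 2%, the same number in each library, and without its highest cluster none of the 7 kept more than 1.05%. The highest, 9.5 Mb from the window centre on chromosome 1, kept 12.7% and 14.2%, and without merged_1_24720965 it kept 0.351% and 0.401%. A bin 9.5 Mb from the centre on chromosome 5 kept 7.47% and 8.41%, and without merged_5_22322586 it kept 0.235% and 0.280%. On chromosome 3, a bin 4.5 Mb from the centre kept 4.70% and 4.74%, and without merged_3_17728477 it kept 0.354% and 0.535%.

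**Figure D3:**
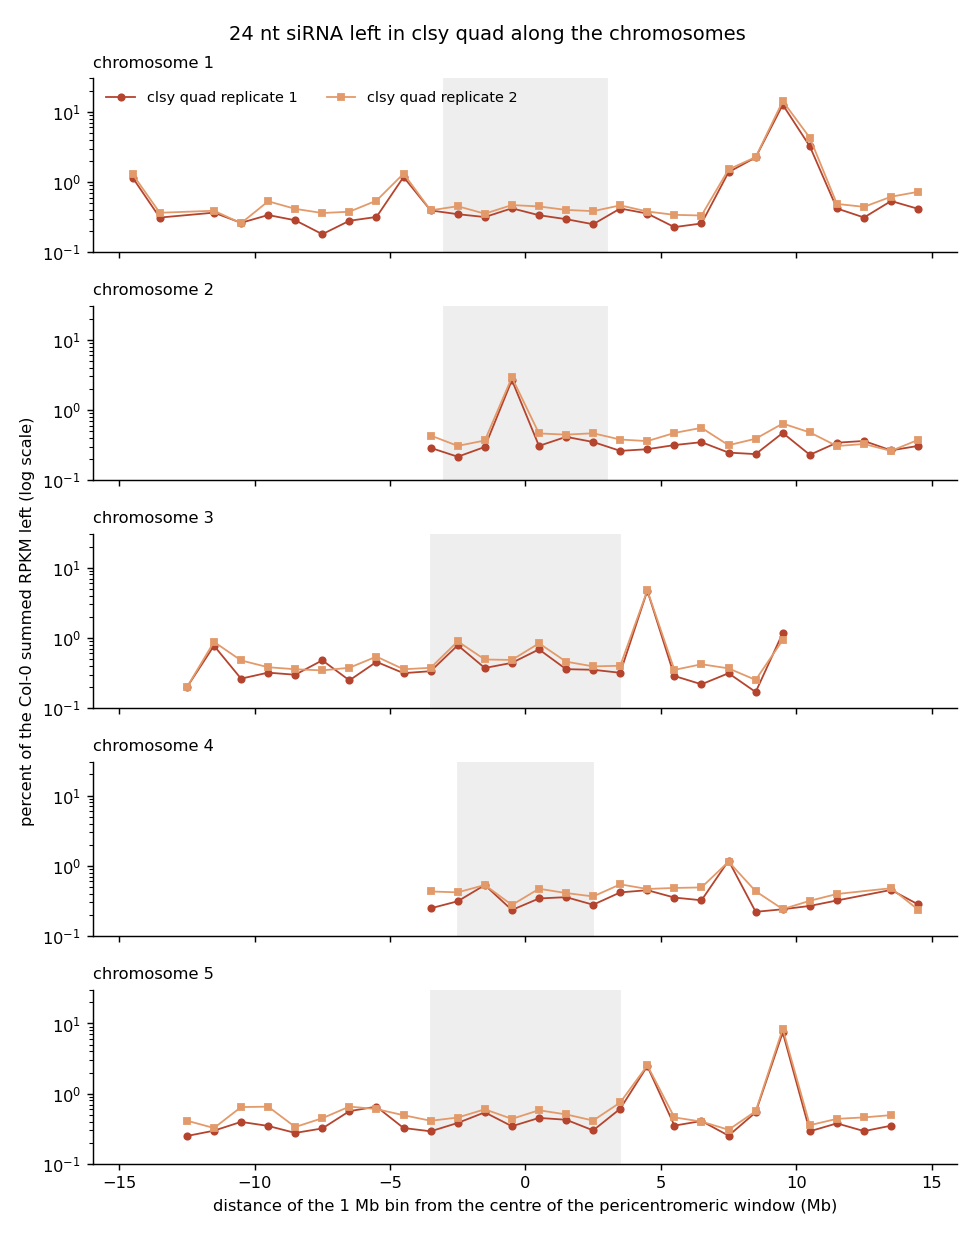
Percent of the Col-0 summed RPKM left in each clsy quad library, in bins of 1 Mb along the 5 chromosomes (log scale), by distance from the centre of the pericentromeric window (grey). Bins with under 20 clusters and the 11 clusters called higher are left out. Most bins, on arms and in windows, lie near the medians of 0.340% and 0.444%, and 7 lie above 2%.

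Loci known for RdDM followed the general loss. Clusters lay within 1 kb of 4 of 9 listed target loci, and all 4 were called lower in clsy quad, near the 97.9% called lower over all clusters. They had a median difference of -4.12 on the log2 scale, against -3.52 over all clusters, a measure that depends on the Col-0 level. The median percent left was 0.191%, against 0.256% over all clusters. At FWA, a homeobox gene that is silenced by methylation of its promoter repeats, merged_4_13038163 lies 197 bp from the gene. It was listed at 0 and 0 RPKM in clsy quad, against 25.8 and 28.5 RPKM in Col-0. Beside CML41, a calmodulin-like gene, merged_3_18873491 had 0 and 0.180 RPKM in clsy quad and 101 and 113 RPKM in Col-0. Beside QQS, a gene of starch metabolism found only in Arabidopsis thaliana, merged_3_12348810 had 0.310 and 0.0800 RPKM in clsy quad and 6.16 and 6.46 RPKM in Col-0, and without Col-0 replicate 1 or 2 it was not called (adjusted p = 0.0211 and 0.0217 by limma). Beside APUM9, which encodes a Pumilio RNA-binding protein, merged_1_13230589 had 0.0600 and 0 RPKM in clsy quad and 10.4 and 9.78 RPKM in Col-0.

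The 8 listed copies of ONSEN, a heat-activated copia retrotransposon, had 11 clusters within 1 kb, and all 11 were called lower, near the 97.9% of all clusters. Their median difference was -3.66 on the log2 scale, and they kept between 0.0460% and 0.683% of the Col-0 level. Of the CLSY genes themselves, CLSY1, CLSY3 and CLSY4 had a cluster within 1 kb and CLSY2 had none. All 3 were called lower in clsy quad, again near the 97.9% of all clusters. The cluster 93 bp from CLSY4, merged_3_8835922, had 0 and 0.180 RPKM in clsy quad and 26.7 and 23.1 RPKM in Col-0. Of the 8 trans-acting siRNA genes, whose siRNAs are made by RDR6 and DCL4 and are mostly 21 nt long, only TAS3C had a cluster near it. It lies 915 bp from the gene, had 0.220 and 0.520 RPKM in clsy quad, against 124 and 106 RPKM in Col-0, and was called lower.

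By annotation at the position in the name, 9,668 clusters lay outside annotated genes, and 9,556 of these (98.8%) were called lower in clsy quad and 2 higher. Over all clusters, 97.9% were called lower and 0.0850% higher. Of 1,341 clusters in protein-coding genes, 1,309 (97.6%) were called lower and 2 higher. Of 144 in non-coding genes other than microRNA and structural RNA genes, 141 (97.9%) were called lower and 2 higher. Of 1,722 in pseudogenes, a class that holds many transposon genes, 1,635 (94.9%) were called lower and 0 higher. The median percent left was 0.253% outside genes, 0.319% in protein-coding genes and 0.150% in pseudogenes, against 0.256% over all clusters. All 7 clusters at structural RNA genes (tRNA, rRNA, snRNA or snoRNA) were called lower, near the 97.9% of all clusters. One of them, merged_2_3303688, kept 25.8%, with 1.08 and 1.00 RPKM in clsy quad and 4.03 and 4.04 RPKM in Col-0, and it lies in the copy of mitochondrial sequence described last.

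Of the 20 clusters at microRNA genes, 14 (70.0%) were called lower in clsy quad, 5 higher and 1 in neither direction, against 97.9% lower and 0.0850% higher over all clusters. Their median difference was -2.98 on the log2 scale, and 8 of the 20 kept at least 10% of the Col-0 level. They held 74.2% and 71.1% of the summed RPKM of the clsy quad libraries, against 1.58% and 1.71% of that of the Col-0 libraries. The cluster at MIR163, whose microRNA is 24 nt long and is known to target methyltransferase transcripts, was the highest of all clusters in both genotypes. The position in the name of this cluster, merged_1_24884060, lies 6 bp before the start of the gene. Cluster ends were not used, so how much of the gene it covers was not examined. It had 11,616 and 10,934 RPKM in clsy quad, against 4,813 and 4,956 RPKM in Col-0. The difference was 1.21 on the log2 scale (SE 0.05, adjusted p = 2.77e-05 by limma).

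The cluster at MIR848, merged_5_4479376 in an intron of AT5G13890, had 509 and 511 RPKM in clsy quad and 83.5 and 93.0 RPKM in Col-0, a difference of 2.52 on the log2 scale (SE 0.11, adjusted p = 3.09e-05 by limma). At MIR8178, merged_4_18087176 in an intron of AT4G38760 had 29.7 and 25.8 RPKM in clsy quad and 10.9 and 8.52 RPKM in Col-0. At MIR8121, the other 24 nt microRNA, merged_2_16588018 had 211 and 239 RPKM in clsy quad and 87.1 and 91.7 RPKM in Col-0. At MIR1887, merged_4_11370268 had 341 and 326 RPKM in clsy quad and 170.2 and 149 RPKM in Col-0. In each of these 5 clusters both clsy quad libraries were above both Col-0 libraries, as at 0.139% of all clusters. A call makes this likely, so that it adds no support to the calls.

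The microRNA clusters called lower differed widely in what was left. At MIR5662, merged_2_16798547 was listed at 0 and 0 RPKM in clsy quad and had 51.1 and 43.3 RPKM in Col-0. At MIR8177, merged_5_9362520 had 0 and 0.05 RPKM in clsy quad and 36.0 and 36.0 RPKM in Col-0. At MIR397a, whose microRNA targets laccase transcripts, merged_4_2625960 had 0.290 and 0.230 RPKM in clsy quad and 32.0 and 28.7 RPKM in Col-0. At MIR776, merged_1_22795520 had 1.42 and 1.14 RPKM in clsy quad and 105 and 100.1 RPKM in Col-0. In these 4 clusters less than 2% was left, like at the clusters of the general loss.

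At MIR839, merged_1_25278928 had 64.4 and 82.5 RPKM in clsy quad and 196 and 205 RPKM in Col-0, and was called lower with 36.7% left. Against NRPD1-3xF_WT, with 79.2 and 97.6 RPKM there, it was not called, at -0.27 on the log2 scale, and neither was it without Col-0 replicate 1 (adjusted p = 0.0665 by limma) or 2 (0.0708). The only microRNA cluster called in neither direction lay at MIR869. This cluster, merged_5_15891592, had 15.2 and 14.1 RPKM in clsy quad and 8.83 and 9.07 RPKM in Col-0, a difference of 0.65 on the log2 scale (SE 0.09). Scaled to the 21 nt reads the direction turned, to -0.28, and against NRPD1-3xF_WT the cluster was called higher, at 1.44. Both clusters have an inverted repeat by the search described further on.

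The other 6 clusters called higher were not at microRNA genes by the 100 bp rule. The largest increase of all was at merged_4_13295908, in an exon of the non-coding RNA gene AT4G26255. It had 1,634 and 1,748 RPKM in clsy quad, 1,456 and 2,730 RPKM in nrpd1-3 and 118 and 110.0 RPKM in Col-0, a difference between clsy quad and Col-0 of 3.88 on the log2 scale (SE 0.10, adjusted p = 5.81e-06 by limma). In an intron of AT5G42950, merged_5_17230109 had 245 and 193 RPKM in clsy quad and 62.1 and 67.1 RPKM in Col-0. In an exon of the long non-coding RNA gene AT2G04345, merged_2_818861 had 36.0 and 36.5 RPKM in clsy quad and 12.7 and 12.5 RPKM in Col-0. In an intron of AT1G05780, within 300 bp of MIR5656, merged_1_1727121 had 26.7 and 30.9 RPKM in clsy quad and 13.3 and 13.1 RPKM in Col-0. Outside annotated genes, merged_3_11482734 had 13.3 and 15.8 RPKM in clsy quad and 5.43 and 5.63 RPKM in Col-0, and merged_4_1873241 had 22.0 and 23.7 RPKM in clsy quad and 10.8 and 9.83 RPKM in Col-0. Of the 11 clusters called higher, 9 lay on the arms and 2 in the pericentromeric windows.

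**Figure D4:**
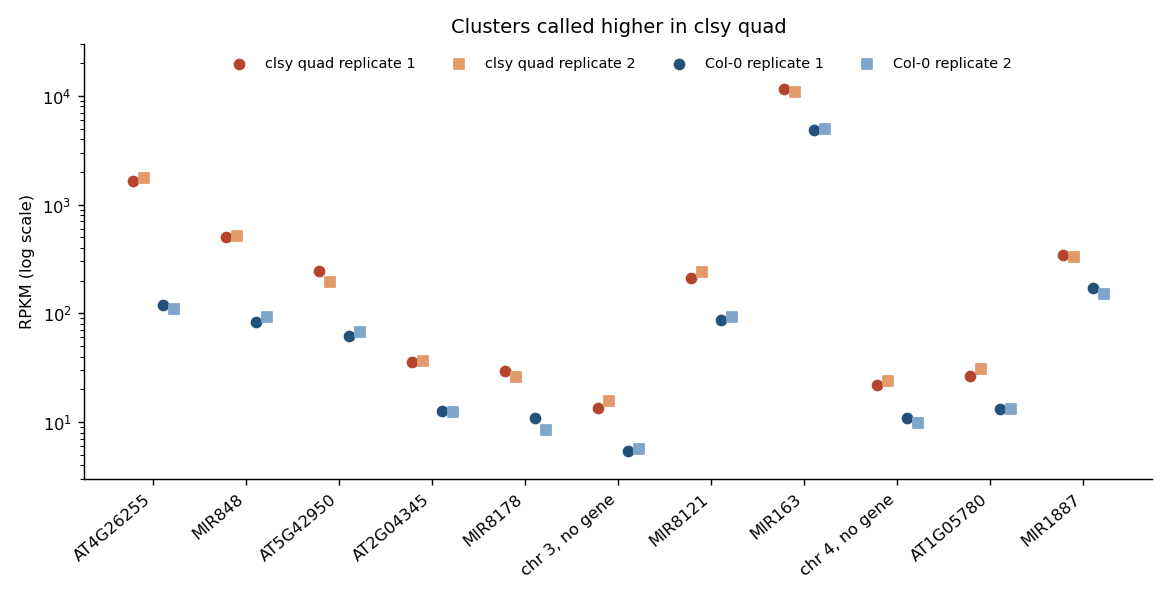
24 nt siRNA level of the 11 clusters called higher, in RPKM on a log scale, in each clsy quad library (red and orange) and each Col-0 library (blue), ordered by the ratio of the means. In each cluster both clsy quad libraries lie above both Col-0 libraries, which the call itself makes likely. Clusters are named by the microRNA gene or other gene at their position.

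The number of clusters called higher depends on what the RPKM is scaled to. The authors' RPKM was taken to be relative to the filtered reads of all lengths, from the ratio of low values between the clsy quad replicates. Scaling to the 21 nt reads instead lowered the clsy quad values against Col-0 by 1.02 on the log2 scale. With that scaling 2 of the 11 clusters were called higher, those at AT4G26255 (2.86 on the log2 scale) and MIR848 (1.51), and 12,706 clusters were called lower. The difference at MIR163 was then 0.19. Leaving out either Col-0 library gave the same 2 calls, since the spread is then taken from the clsy quad libraries alone, and 10,686 or 10,745 clusters called lower. Without clsy quad replicate 1 or 2, 11 and 10 clusters were called higher. Against NRPD1-3xF_WT, 4 of the 11 were not called, merged_3_11482734 (0.30 on the log2 scale, with 11.4 and 11.8 RPKM in NRPD1-3xF_WT), merged_4_11370268 at MIR1887 (0.58), merged_4_1873241 (0.96) and merged_1_1727121 (0.99).

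In all, 125 clusters kept at least 10% of the Col-0 level in clsy quad. Of these, 53 lay on the nuclear chromosomes with at least 5 RPKM in Col-0, and among the 53, 11 were called higher, 29 lower and 13 in neither direction. The highest of the 13 were these. At merged_1_24720965, in an exon of the RNA gene AT1G09805, there were 659 and 741 RPKM in clsy quad, 853 and 1,012 RPKM in nrpd1-3 and 489 and 518 RPKM in Col-0. At merged_5_22322586, 251 bp from AT5G55010, there were 211 and 237 RPKM in clsy quad, 286 and 324 RPKM in nrpd1-3 and 161 and 148 RPKM in Col-0. At merged_5_16715937, outside annotated genes, there were 85.8 and 84.5 RPKM in clsy quad, 45.5 and 63.9 RPKM in nrpd1-3 and 69.1 and 57.7 RPKM in Col-0. Each of these 3 was above Col-0 in both clsy quad libraries, but below the 2-fold limit of a call. Scaled to the 21 nt reads, the direction turned at all 3, to -0.54 at merged_1_24720965, -0.48 at merged_5_22322586 and -0.57 at merged_5_16715937 on the log2 scale. Against NRPD1-3xF_WT, merged_5_22322586 was called higher, at 1.01.

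Other clusters fell but kept a high level. In an exon of the long non-coding RNA gene AT3G07855, merged_3_17728477 had 141 and 138 RPKM in clsy quad, 116 and 159 RPKM in nrpd1-3 and 621 and 513 RPKM in Col-0. It was called lower, at -2.01 on the log2 scale (SE 0.13, adjusted p = 1.45e-04 by limma), with 24.6% left. The following were chosen after their values were seen. At merged_1_22084073, within 300 bp of MIR5647 and in an exon of the ARL2 gene, there were 25.5 and 26.7 RPKM in clsy quad and 54.4 and 51.4 RPKM in Col-0, and at -0.99 on the log2 scale it was just short of a call. At merged_1_23140473, with no gene within 3 kb, there were 60.1 and 58.2 RPKM in clsy quad and 74.3 and 76.7 RPKM in Col-0. Of the 295 clusters from 11 to 12 Mb on chromosome 3, 290 (98.3%) were called lower, near the 97.9% of all clusters. In this stretch 5 clusters (1.69%) kept at least 10%, against 0.674% in the pericentromeric windows. The 5 include merged_3_11348247 with 86.1% left, merged_3_11354299 with 80.4%, merged_3_11479522 with 46.8% and merged_3_11482734, which was called higher.

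Inverted repeats were searched in 1,000 bp of TAIR10.1 at each nuclear cluster, from 100 bp before the position in its name, by aligning the window to its own reverse complement. A window was counted when the score reached 150, with 3 for a match, -4 for a mismatch and -12 for a gap. An alignment of 50 matched bases without a mismatch would reach it. Where the arms lie close together the alignment can run through both, so that shorter arms reach it. This held for 373 of the 12,902 nuclear clusters (2.89%). Among clusters with at least 5 RPKM in Col-0, 19 of the 53 that kept at least 10% in clsy quad had such a repeat (35.8%), 95 of the 1,149 that kept 1% to 10% (8.27%), and 226 of the 7,944 that kept under 1% (2.84%). The 3 of the 11 clusters called higher with one were those at AT4G26255, MIR8178 and AT1G05780. The 4 sequences shown above had scores of 402 to 868. The clusters at merged_5_16715937 (618), merged_3_17728477 (782), MIR839 (512) and MIR869 (300) also had one. So did the cluster at MIR5662 (372), which was listed at 0 in both clsy quad libraries.

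**Figure D5:**
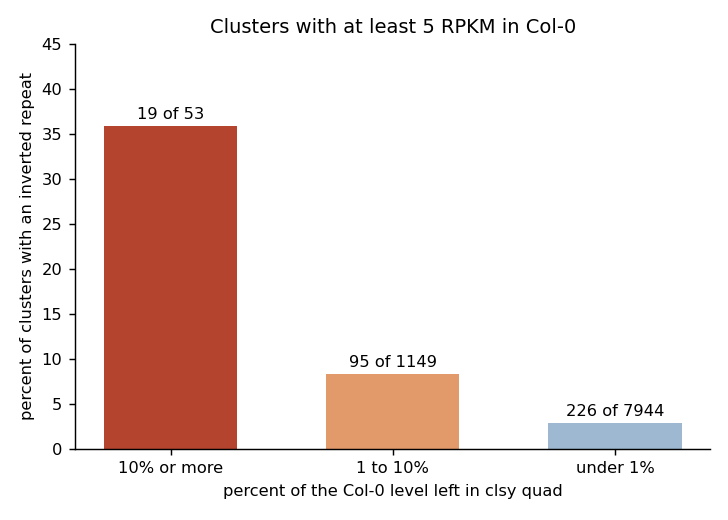
Percent of nuclear clusters with an inverted repeat in the 1,000 bp window, among clusters with at least 5 RPKM in Col-0, by the percent of the Col-0 level left in clsy quad. The share was 35.8% of the 53 clusters that kept 10% or more, 8.27% of the 1,149 that kept 1% to 10% and 2.84% of the 7,944 that kept under 1%.

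Most clusters with an inverted repeat still lost their siRNAs. Of the 373 clusters with one, 23 (6.17%) kept at least 10% of the Col-0 level in clsy quad, against 79 (0.631%) of the 12,529 without. In the quartile with the highest Col-0 level, the numbers were 9 of 154 (5.84%) with a repeat and 7 of 3,080 (0.227%) without. The median cluster with a repeat in that quartile kept 0.564% in clsy quad replicate 1 and 0.631% in replicate 2, and the median cluster without one 0.140% and 0.255%. Repeats between clusters, and RNA folding, were not examined.

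Clusters of mitochondrial sequence formed the last group with 24 nt reads left. Whether these reads are siRNAs was not tested. Of the 37 clusters on the mitochondrial genome, 7 (18.9%) were called lower in clsy quad and 0 higher, and 23 kept at least 10%. The sum over them was 12.1 and 11.3 RPKM in clsy quad, 10.9 and 11.04 RPKM in nrpd1-3 and 49.2 and 52.5 RPKM in Col-0, so that 23.8% and 22.3% was left. Their Col-0 levels were low, with a median of 1.04 RPKM, and 16 were under 1 RPKM.

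A large copy of the mitochondrial genome lies in the pericentromere of chromosome 2, and clusters there kept 24 nt reads as well. At 28 nuclear clusters, at least 50% of the 20 bp words of the window were found in the mitochondrial genome, 26 of them between 3,242,329 and 3,509,252 on chromosome 2, where no other cluster lay, and 2 on chromosome 1. Of the 26, 7 were called lower and 15 kept at least 10%. Their Col-0 levels were low too, with 14 of the 26 under 1 RPKM. Among all 165 nuclear clusters with under 1 RPKM in Col-0, 14 (8.48%) kept at least 10%. The 165 include those of the copies, and of the 14 that kept at least 10%, 5 did not lie at copies. The highest of the 26, merged_2_3275780, had 18.9 and 19.4 RPKM in clsy quad, 14.7 and 20.6 RPKM in nrpd1-3 and 10.6 and 11.8 RPKM in Col-0. It makes up most of their sum in clsy quad, which was 23.6 and 24.5 RPKM, against 41.3 and 43.8 RPKM in Col-0. Reads of such a copy and of the mitochondrial genome cannot be told apart where the sequence is the same. The 125 clusters with at least 10% left thus comprised 23 mitochondrial clusters, 15 at nuclear copies of mitochondrial sequence and 87 others.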

How the data were processed

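Small RNA libraries of Arabidopsis flowers were made by a gel-free QIAseq protocol with unique molecular identifiers. Whether these were used to remove duplicates is not given in the sources used here. The authors used cutadapt for trimming and ShortStack for mapping (TAIR10, up to 1 mismatch, reads with several matches placed by the reads around them). They kept perfect matches or a mismatch at the 3' end. They deposited RPKM values of 24 nt reads over a fixed set of clusters, made with HOMER 4.10. These values were taken here as scaled to all filtered reads. The deposited values are RPKM, and no counts of reads entered the tests. The 2 libraries per genotype limit the precision. The study describes the replicates as biological, and the sample titles give their numbers.

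Values were taken to log2(RPKM + 1) and clsy quad was compared with Col-0 by limma 3.58.1 in R 4.3.3 (eBayes with a trend) on 4 libraries. P-values were adjusted by the Benjamini-Hochberg method over 12,939 clusters. In the inverted-repeat search, runs of 12 or more bases of 1 base or of a repeated pair were masked. Copies of mitochondrial sequence were defined after values were seen. The percent left is the clsy quad value relative to the Col-0 mean. Genes, sequences and windows came from the RefSeq annotation of TAIR10.1, whose nuclear chromosomes are those of TAIR10. The columns of the table not used numbered 0. The 21 nt read numbers for the rescaling were those of the study's supplement. Python 3.11.15 (pandas 2.3.3, numpy 2.4.6, matplotlib 3.10.9, scipy 1.17.1) served for tables and plots.

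Named clusters were those called higher, the 10 highest in each genotype, the 10 with the largest percent left among clusters with at least 5 RPKM in Col-0 not called lower, those within 1 kb of the loci of 4 lists (CLSY genes, RdDM targets, ONSEN copies and trans-acting siRNA genes), and those at microRNA (100 bp) and structural RNA genes or on the mitochondrial genome. The members and lists were chosen with earlier results of these data known. Alternatives were a pseudocount of 0.1, a mean of at least 1 RPKM, a replicate block, 12 libraries in the fit, no trend, an adjusted p under 0.05, 21 nt scaling, leaving out each replicate, and NRPD1-3xF_WT in place of Col-0. Named clusters on the mitochondrial genome and those chosen after their values were seen were not refitted under them.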

Additional observations from a re-analysis of the deposited data

How the results depend on the processing

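The 12,669 clusters called lower in clsy quad stayed within 1.5 times that number under all 12 alternatives, between 10,686 without Col-0 replicate 1 and 12,782 with a pseudocount of 0.1. The 11 calls of a higher level became 2 when scaled to the 21 nt reads, and between 2 and 11 with each replicate left out (2 without either Col-0 replicate). NRPD1-3xF_WT as the reference gave 10, of which 7 were among the 11. No named cluster changed direction of a call in 715 refits, 658 kept their side of the threshold, 55 lost a call and 2 gained one. With the replicate number as a block, 12,683 clusters were called lower and 11 higher. The deviations of same-numbered clsy quad and Col-0 libraries correlated at 0.00423 over clusters, so the numbers were not treated as pairs.

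The percent of the Col-0 sum left in clsy quad, 4.81%, became 0.102% as the mean of the medians over clusters of the 2 clsy quad libraries (the median of the clusters' mean percent left is 0.256%), 0.561% once the top 1% of clusters by mean were dropped, 0.791% without the clusters called higher, 2.37% scaled to the 21 nt reads and 5.22% of the NRPD1-3xF_WT sum. It lay between 4.68% and 4.94% with each replicate left out. The median left in the lowest decile was 0% throughout, and 1.48% by the sum of the decile. In the highest decile it was 0.178%, 8.53% by the sum, which holds the MIR163 cluster, 0.0872% scaled to the 21 nt reads and 0.265% of NRPD1-3xF_WT. By the sum, 0.466% was left in the pericentromeric windows and 7.34% on the arms, where 9 clusters called higher lie, against medians of 0.0456% and 0.173%. The 122 clusters with at least 1 RPKM in both clsy quad libraries became 56 scaled to the 21 nt reads, and 185 without clsy quad replicate 1, since a single library then had to pass. The 125 with at least 10% left became 73 scaled to the 21 nt reads and 218 against NRPD1-3xF_WT. With 2 libraries a genotype and values listed at 0 at up to 53.9% of the clusters in clsy quad, a residue of single clusters is not resolved where the Col-0 level is low.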
